A study of Mus musculus with 24 samples.

Results

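The expression of 10 genes for bone morphogenetic protein (BMP) ligands and for secreted proteins that act on them was examined in MC38, a mouse colorectal cancer cell line. The list was set by name with earlier results of these data known, and consists of the ligands Bmp2, Bmp4, Bmp5 and Bmp7, the protease Bmp1, and the modulators Bmper, Grem1, Nog, Fst and Fstl1. These are 10 of the 52636 genes in the table, and all 10 were found in it by symbol. Bmp5 and Bmper were selected on their measured levels, which differed strongly between lines, so their values are given as a description without a test, whereas the other 8 members were tested.

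RNA sequencing was performed on 24 samples, 3 from each of 8 MC38 lines of C57BL/6 origin. MC38-WT was unmodified and grown without puromycin (passages 7, 8 and 9), and all other lines were grown with puromycin. MC38-MOCK#1 carried an empty CRISPR-Cas9 construct and is the reference of the knockouts, which were MC38-COSMC KO (C1galt1c1, encoding the chaperone of T-synthase), MC38-CMAS KO (Cmas, encoding the enzyme that activates sialic acid) and MC38-DKO (both genes), each at passages 4, 5 and 6. MC38-MOCK#2 was the CRISPR-dCas-VPR control (passages 6, 7 and 8) and is the reference of the lines labelled MC38-FUT4 (passages 7, 8 and 7) and MC38-FUT9 (passages 6, 7 and 8), made with the same transcriptional activator directed at a fucosyltransferase gene. There is 1 line per modification, and the COSMC knockout was sorted in bulk on a lectin for the Tn antigen, so that the effect of a modification and the history of the line that carries it cannot be told apart. The 3 samples of a line differ in passage or only in number, and p-values measure the spread between them.

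BMPs are secreted dimers of the TGF-β superfamily. They bind type I and type II serine/threonine kinase receptors, which phosphorylate SMAD1, SMAD5 and SMAD9, and with SMAD4 these induce genes such as Id1, Id2, Id3, Smad6 and Smad7. Outside the cell, antagonists such as noggin and gremlin 1 bind ligands and keep them from their receptors, and in the colon such antagonists are known to be made by the stroma around the crypt base, where they protect stem cells from differentiation.

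The values are normalized counts, i.e., read counts scaled by the authors for library size and composition and rounded. An estimated 6759106 to 16230322 reads per library lay behind them, and 3 reads, the most that a count of 0 is compatible with, corresponded to 2.27 to 5.02 normalized counts depending on the library. The targeted genes were inspected first. Cmas was lower in MC38-CMAS KO (93 to 126) and MC38-DKO (122 to 142) than in MC38-MOCK#1 (384 to 416), and C1galt1c1 was lower in MC38-COSMC KO (124 to 163) than in MC38-MOCK#1 (220 to 251), but C1galt1c1 did not separate MC38-DKO (166 to 206) from MC38-CMAS KO (152 to 215). Fut9 reached 641 to 955 in MC38-FUT9. In the line labelled MC38-FUT4, Fut4 was at 0 or 1 whereas Fut9 was at 171 to 209, so this line is called by its label throughout and no direction is ascribed to Fut4. Of 8 epithelial markers, Epcam, Cdh1, Krt18, Krt19 and Cdx2 were at 5 or below in all samples and the summed level was 2 to 49 outside the line labelled MC38-FUT4, where it was 266 to 476 (mostly Krt20, 263 to 468). The summed level of 10 mesenchymal markers was 34135 to 52485, that of 5 immune markers at most 6 and that of 4 endothelial markers at most 19. The RNA therefore lacked 5 of 8 epithelial markers although the line is of colorectal origin, and carried Vim (19787 to 33315) and Fn1 (5997 to 26791), which made up most of the mesenchymal sum, in every line. Other markers of that list were low or varied, with Lum at 0 to 11, Dcn at 0 to 417 and Col3a1 at 4918 to 13474 in MC38-MOCK#2 and the line labelled MC38-FUT4 against 24 to 470 elsewhere. In bulk RNA, fewer cells that express a gene and less RNA per cell cannot be told apart.

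The members differed widely in abundance. Per kilobase of transcript and averaged over the 24 samples, Fstl1 (282 normalized counts per kb), Grem1 (244) and Bmp1 (169) were the most abundant, followed by Bmper (22.0) and Bmp2 (9.19). Bmp5 (1.96), Fst (1.77), Bmp7 (1.26) and Bmp4 (0.356) were scarce, and Nog was at 0 in all 24 samples. Bmp2 was thus the most abundant of the 4 ligands on this scale, and each of the abundant members acts on ligands or on matrix and is no ligand itself.

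**Figure D1:**
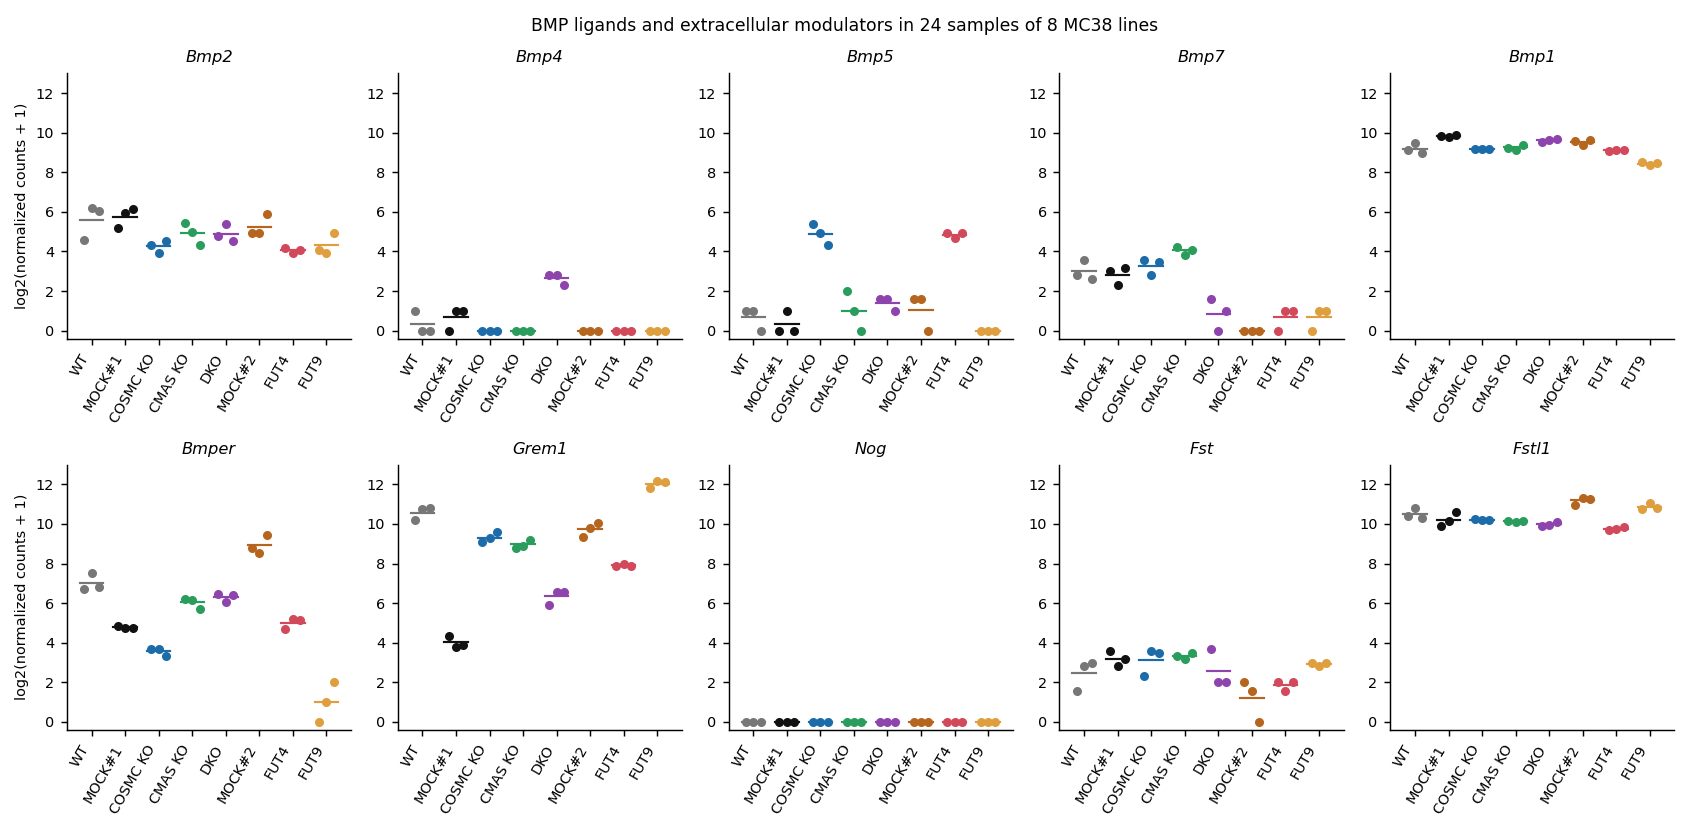
Level of each of the 10 members in every sample, as log2(normalized counts + 1), for the 8 MC38 lines on the horizontal axis. Points are the 3 samples of a line and the bar is their mean. Grem1 spans 13 to 4676 normalized counts and Bmper 0 to 695, Bmp5 is above 3 in the samples of 2 lines only, and Nog is at 0 throughout.

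Among the ligands, Bmp5 was near 0 in 6 lines and present in the other two. This ligand, known for its role in skeletal development, lies on chromosome 9 (GRCm38, 75775364-75900310, plus strand). It measured 41, 29 and 19 normalized counts in MC38-COSMC KO and 30, 25 and 29 in the line labelled MC38-FUT4. The samples of these lines overlapped with each other and with no sample of any other line: MC38-CMAS KO had 3, 1 and 0, MC38-DKO 2, 2 and 1, MC38-MOCK#2 2, 2 and 0, MC38-WT 1, 1 and 0, MC38-MOCK#1 0, 1 and 0, and MC38-FUT9 0 in each. The ratio of the means was 89.0 for MC38-COSMC KO over MC38-MOCK#1 (exact 95% interval for counting error alone, 16.7 to 3795) and 21.0 for the line labelled MC38-FUT4 over MC38-MOCK#2 (7.39 to 73.5). As Bmp5 was selected on these values, the intervals describe how coarse the counts are and are no test of a difference. Even where it was highest, Bmp5 stood at 7.37 normalized counts per kb in MC38-COSMC KO, near the 5.16 of Bmp2 in the same line. The COSMC knockout carried Bmp5 RNA, whereas MC38-DKO, which was modified at the same gene, did not exceed 2 normalized counts, and this contrast is likewise a description.

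Bmp2, a ligand of bone and heart development (chromosome 2, 133552159-133562885), was found in all samples. The values were 35, 60 and 69 in MC38-MOCK#1 and 19, 14 and 22 in MC38-COSMC KO, with no overlap between the lines, and Bmp2 was lower in the knockout by a log2 fold change of -1.49 (SE 0.315, adjusted p = 0.0252). This call rested on all samples, as it passed in just 1 of 6 fits that each left out 1 sample (adjusted p 0.0335, without MC38-MOCK#1 replicate 1, to 0.118). The line labelled MC38-FUT4 had 17, 14 and 16 against 30, 29 and 59 in MC38-MOCK#2, a difference of -1.20 on the log2 scale (SE 0.327) that did not pass (adjusted p = 0.05, just above the threshold before rounding). In the other 6 comparisons the log2 differences of Bmp2 lay between -0.94 and -0.04, and none passed. All neighbors in the order of the 8 line means of Bmp2, from 15.7 in the line labelled MC38-FUT4 to 54.7 in MC38-MOCK#1, had overlapping samples.

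Bmp7, a ligand of kidney and eye development (chromosome 2, 172868012-172940321), separated the lines into a low and a higher set. MC38-CMAS KO had 18, 13 and 16 normalized counts, MC38-COSMC KO 11, 6 and 10, MC38-WT 6, 11 and 5 and MC38-MOCK#1 7, 4 and 8. MC38-DKO had 2, 0 and 1, the line labelled MC38-FUT4 0, 1 and 1, MC38-FUT9 0, 1 and 1, and MC38-MOCK#2 0 in each. No sample of the latter 4 lines reached the lowest sample of the former 4. The sets were read off these values, and their boundary lay near the floor of 3 reads. This floor was 4.645 in MC38-DKO replicate 1 (value 2) and 5.017 in MC38-WT replicate 3 (value 5). Bmp7 was lower in MC38-DKO than in MC38-CMAS KO (log2 fold change -3.19, SE 0.499, adjusted p = 0.0102), and the ratio of the means was 15.7 with a counting interval of 5.90 to 192. It was also lower in MC38-MOCK#2 than in MC38-MOCK#1 (log2 fold change -2.83, adjusted p = 0.00605), which on the linear scale is at least 1.91-fold against the mean floor of 3 reads per library. Here Bmp7 passed the filter on zeros (at most 4 among 6 samples) only through the samples of MC38-MOCK#1, so this call is a description. The first call passed in 2 of 6 fits that left out 1 sample (those without MC38-DKO replicates 1 and 2, adjusted p 0.0322 to 0.0774 over the 6), and the second in 6 of 6.

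Bmp4, a ligand that is made by mesenchyme of the gut (chromosome 14, 46383520-46390669), was detected in MC38-DKO with 6, 6 and 4 normalized counts. No other sample exceeded 1, and 18 of 24 samples were at 0. Bmp4 was higher in MC38-DKO than in MC38-CMAS KO, where all samples were at 0 (fitted log2 fold change 2.65, SE 0.4, adjusted p = 0.00885), and the linear difference was at least 1.74-fold against the same floor. These values correspond to 15 reads in 3 libraries. In this comparison, Bmp4 passed the filter on zeros only through the samples of MC38-DKO, so the call is a description. The call was lost without MC38-CMAS KO replicate 2 or MC38-DKO replicate 2 (highest adjusted p 0.0523). Against MC38-MOCK#1 (0, 1 and 1), the difference did not pass (log2 1.98, adjusted p = 0.314).

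Bmp1 is named with the ligands but encodes a metalloprotease that trims procollagens and cleaves the BMP antagonist chordin. It lies on chromosome 14 (70474557-70520260) and its line means spanned 2.61-fold. MC38-MOCK#1 stood highest with 900, 879 and 936 normalized counts and MC38-FUT9 lowest with 361, 324 and 355, and no other line overlapped with either. Bmp1 was lower in MC38-FUT9 than in MC38-MOCK#2, which had 752, 662 and 789 (2.12-fold, log2 fold change -1.08, SE 0.0897, adjusted p = 0.000569). It was also lower in the line labelled MC38-FUT4 than in MC38-MOCK#2 (529, 562 and 563, log2 fold change -0.41, adjusted p = 0.0194). Against MC38-MOCK#1 it was lower in MC38-COSMC KO (571, 580 and 573, -0.65, adjusted p = 0.00112), in MC38-CMAS KO (602, 562 and 667, -0.57, adjusted p = 0.0118) and in MC38-WT (553, 703 and 507, -0.64, adjusted p = 0.0342). In MC38-DKO it measured 732, 784 and 824, and neither the difference from MC38-MOCK#1 (-0.22, adjusted p = 0.526) nor that from MC38-CMAS KO (0.36, adjusted p = 0.0565) passed. The latter passed when samples were rescaled to the same total (limma, 0.36, adjusted p = 0.0484). The calls in MC38-FUT9 and MC38-COSMC KO passed in 6 of 6 fits without 1 sample. That in MC38-CMAS KO passed in 2 (without replicate 3 of either line), that in MC38-WT in 1 (without MC38-WT replicate 2), and that in the line labelled MC38-FUT4 in 2 (without MC38-MOCK#2 replicate 2 or 3), with adjusted p of up to 0.0779, 0.16 and 0.0834. With replicate number as a block in the fit, only the call of Bmp1 in MC38-FUT9 passed (limma, adjusted p = 0.0108).

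Bmper encodes a secreted protein with chordin-type repeats that binds BMPs and can act for or against them. It lies on chromosome 9 (23223076-23485200, plus strand) and was detected in 23 of 24 samples. MC38-MOCK#2 was highest with 441, 370 and 695 normalized counts and MC38-FUT9 lowest with 0, 1 and 3, although these lines share the same activator system. The ratio of their means was 376 (counting interval 175 to 1647), and it was 15.9 for MC38-MOCK#2 over the line labelled MC38-FUT4 (25, 36 and 34). As Bmper was selected on its levels, this interval is no test of a difference either. MC38-WT had 105, 184 and 110, MC38-DKO 87, 66 and 84, MC38-CMAS KO 74, 71 and 51, MC38-MOCK#1 28, 26 and 26, and MC38-COSMC KO 12, 12 and 9. The order of the 8 means therefore had gaps without overlap at all steps except those between MC38-MOCK#1 and the line labelled MC38-FUT4 and between MC38-CMAS KO and MC38-DKO. MC38-MOCK#2 exceeded the other control line, MC38-MOCK#1, 18.8-fold. Bmper thus differed among the 3 lines without a targeted gene (MC38-WT, MC38-MOCK#1 and MC38-MOCK#2), in which Bmp5 did not exceed 2.

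Grem1, encoding gremlin 1, an antagonist that binds BMP2, BMP4 and BMP7, had the widest range of the tested members and was called in 8 of 8 comparisons. It lies on chromosome 2 (113746164-113758646, minus strand). MC38-MOCK#1 had 19, 13 and 14 normalized counts, below every sample of every other line. MC38-DKO had 59, 95 and 92, the line labelled MC38-FUT4 235, 255 and 230, MC38-CMAS KO 441, 476 and 588, and MC38-COSMC KO 544, 617 and 761. MC38-MOCK#2 had 636, 901 and 1044, MC38-WT 1161, 1697 and 1766, and MC38-FUT9 3615, 4676 and 4390. Only the neighbors MC38-CMAS KO and MC38-COSMC KO, and MC38-COSMC KO and MC38-MOCK#2, overlapped in this order.

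Relative to MC38-MOCK#1, Grem1 was higher in MC38-WT (100-fold, log2 fold change 6.55, SE 0.212, adjusted p = 5.54e-05), in MC38-MOCK#2 (56.1-fold, 5.71, adjusted p = 0.000176), in MC38-COSMC KO (41.8-fold, 5.30, adjusted p = 3.93e-05) and in MC38-CMAS KO (32.7-fold, 4.95, adjusted p = 0.000196). In MC38-DKO it was higher as well (5.35-fold, 2.33, SE 0.277, adjusted p = 0.027), but this call was lost in each of 6 fits that left out 1 sample (adjusted p 0.253 to 0.591). These 5 comparisons share the low samples of MC38-MOCK#1 and are not independent. Grem1 was lower in MC38-DKO than in MC38-CMAS KO (6.12-fold, -2.62, SE 0.201, adjusted p = 0.000474). Relative to MC38-MOCK#2, it was higher in MC38-FUT9 (4.91-fold, 2.32, adjusted p = 0.000532) and lower in the line labelled MC38-FUT4 (3.58-fold, -1.81, adjusted p = 0.00122), although Fut9 RNA was detected in both of these lines. Apart from that in MC38-DKO against MC38-MOCK#1, the 7 calls passed in 6 of 6 fits without 1 sample. With replicate number as a block in the fit, Grem1 passed against MC38-MOCK#1 in MC38-MOCK#2 only. The adjusted p by limma was then 0.0771 in MC38-COSMC KO, 0.107 in MC38-CMAS KO, 0.668 in MC38-DKO and 0.09 in MC38-WT.

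Fstl1 encodes a secreted glycoprotein related to follistatin that has been reported to bind BMP4 (chromosome 16, 37776873-37836514). It was high in every sample (841 to 2544), and its line means spanned 2.69-fold. MC38-MOCK#2 had 2007, 2544 and 2486 and the line labelled MC38-FUT4 841, 866 and 908, and Fstl1 was lower in the latter (log2 fold change -1.42, SE 0.101, adjusted p = 0.000441). It was higher in MC38-MOCK#2 than in MC38-MOCK#1, with 958, 1131 and 1551 (0.97, adjusted p = 0.0201), but this call passed in 1 of 6 fits without 1 sample (that without MC38-MOCK#1 replicate 3, adjusted p 0.0252 to 0.111 over the 6). In the other 6 comparisons, differences lay between -0.32 and 0.31, and none passed. The value of -0.32 in MC38-FUT9 (adjusted p = 0.103) passed when samples were rescaled to the same total (-0.41, adjusted p = 0.0322). Fst, encoding the activin antagonist follistatin (chromosome 13, 114452262-114458949), was at 0 to 12 normalized counts and was called in 0 of 8 comparisons by limma. Its largest differences were -1.99 for MC38-MOCK#2 (3, 2 and 0) against MC38-MOCK#1 (11, 6 and 8; adjusted p = 0.0763, unadjusted 0.012) and 1.74 for MC38-FUT9 (7, 6 and 7) against MC38-MOCK#2 (adjusted p = 0.0646, unadjusted 0.0171). Nog, encoding noggin (chromosome 11, 89300638-89302332), was at 0 in all samples and could not be tested.

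**Figure D2:**
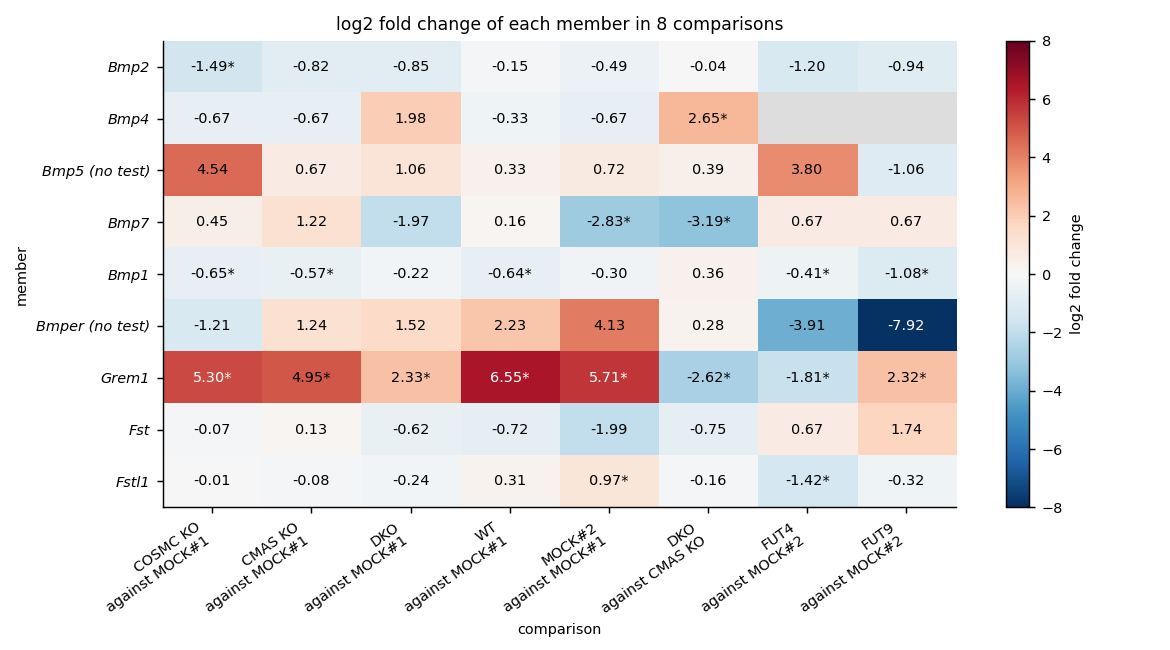
Fold changes of 9 members (rows; Nog was at 0) in the 8 comparisons (columns), as the difference of mean log2(normalized counts + 1). An asterisk marks an adjusted p below 0.05 over all genes tested, Bmp5 and Bmper have no test, and grey cells had no reads in either line. Grem1 carries an asterisk in 8 of 8 comparisons and Fst in 0.

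The upstream sequences of the 3 members with the largest differences between lines are shown because the levels of these genes differed most among lines of the same cell. RefSeq promoters (GRCm38.p6) were at hand for 5 of 10 members, and the 250 bases before the annotated start are given 5′ to 3′ on the strand of the gene, with CG dinucleotides in capitals. They lie at chr9:75775115-75775364 (plus strand) for Bmp5, chr9:23222826-23223075 (plus) for Bmper and chr2:113758649-113758898 (minus) for Grem1.
Bmp5: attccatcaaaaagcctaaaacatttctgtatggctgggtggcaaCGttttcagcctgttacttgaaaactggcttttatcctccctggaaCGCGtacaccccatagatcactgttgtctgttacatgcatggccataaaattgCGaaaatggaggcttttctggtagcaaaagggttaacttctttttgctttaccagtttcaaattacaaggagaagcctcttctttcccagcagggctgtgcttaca
Bmper: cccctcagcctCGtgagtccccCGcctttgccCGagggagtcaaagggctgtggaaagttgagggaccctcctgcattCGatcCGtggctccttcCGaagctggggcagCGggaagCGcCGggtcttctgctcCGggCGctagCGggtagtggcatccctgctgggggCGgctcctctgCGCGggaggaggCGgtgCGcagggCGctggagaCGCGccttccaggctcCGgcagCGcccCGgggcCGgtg
Grem1: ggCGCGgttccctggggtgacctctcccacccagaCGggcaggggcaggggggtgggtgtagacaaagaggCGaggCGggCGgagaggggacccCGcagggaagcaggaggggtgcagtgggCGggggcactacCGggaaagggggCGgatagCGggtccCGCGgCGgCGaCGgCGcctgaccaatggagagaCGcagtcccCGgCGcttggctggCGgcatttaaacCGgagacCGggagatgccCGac
The Bmp5 window held 4 CG dinucleotides at 42.8% GC, and 62.2% of the 32841 promoter windows of this length held at least as many. Those of Bmper and Grem1 each held 24 (71.6% and 72.0% GC), a number reached by 12% of windows, where the median was 6. The GC-rich palindrome GGCGCC, known from SMAD-bound BMP response elements, occurred 1 time before Grem1 and 0 times before the other two, and was present in 9.59% of all windows. The sequence TATAAA was searched on both strands, was absent from all 3 windows and was present in 12.4% of windows. DNA methylation was not measured here.

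Counted by comparison, limma called 3 of 7 tested members in MC38-COSMC KO against MC38-MOCK#1 (Grem1 higher, Bmp1 and Bmp2 lower), where 11.6% of all genes tested were called, 6.17% higher and 5.39% lower. The number was 2 of 7 in MC38-CMAS KO against MC38-MOCK#1 (all genes 5.76%, with 3.02% higher and 2.73% lower), 1 of 7 in MC38-DKO (0.092%, or 20 genes, with 0.023% higher and 0.069% lower), 2 of 7 in MC38-WT (5.51%, with 2.7% higher and 2.81% lower) and 3 of 7 in MC38-MOCK#2 (11.3%, with 5.3% higher and 6.02% lower), each against MC38-MOCK#1. In MC38-DKO against MC38-CMAS KO, 3 of 7 were called (6.93%, with 3.15% higher and 3.78% lower). Against MC38-MOCK#2, 3 of 6 were called in the line labelled MC38-FUT4 (16.1%, with 8.1% higher and 8.04% lower) and 2 of 6 in MC38-FUT9 (24.1%, with 12.1% higher and 12% lower). Nog did not pass the filter on zeros in any comparison, and Bmp4 did not in the latter 2. Genes whose samples did not overlap between the lines made up 28.4%, 24.3%, 11.2%, 23.4% and 28.7% of all genes in the 5 comparisons against MC38-MOCK#1 in this order, 24.5% in MC38-DKO against MC38-CMAS KO, and 32.1% and 36.8% in the line labelled MC38-FUT4 and MC38-FUT9 against MC38-MOCK#2. The median log2 difference of the tested members lay between -0.81, in the line labelled MC38-FUT4, and 0.17, in MC38-FUT9, while that of all genes lay between -0.01 and 0.01. With 54 tests in all, 8 were called higher and 11 lower. Among them are Bmp4 in MC38-DKO against MC38-CMAS KO and Bmp7 in MC38-MOCK#2 against MC38-MOCK#1. Both passed the filter only through the line with the higher values. Since 7 members at most were tested, a single gene moves such a share considerably.

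The design allows a test of whether the COSMC knockout had the same effect with and without the CMAS knockout, i.e., of the difference between MC38-COSMC KO minus MC38-MOCK#1 and MC38-DKO minus MC38-CMAS KO, over 12 samples. Of 7 tested members, 4 differed (all genes 22.1%). Grem1 was higher after COSMC knockout alone (5.30) and lower on the CMAS knockout background (-2.62), a difference of 7.92 on the log2 scale (SE 0.288, adjusted p = 5.48e-10). For Bmp7 the effects were 0.45 and -3.19 (difference 3.64, SE 0.655, adjusted p = 0.00115), for Bmp4 -0.67 and 2.65 (-3.31, SE 0.576, adjusted p = 0.000897), and for Bmp1 -0.65 and 0.36 (-1.01, SE 0.108, adjusted p = 1.61e-05). These 4 results passed in 12 of 12 fits that left out 1 sample. Bmp4 passed the filter on zeros in this fit only through its counts in MC38-DKO, so its result is a description. Bmp2 (-1.46, adjusted p = 0.0533), Fst (0.68, adjusted p = 0.573) and Fstl1 (0.15, adjusted p = 0.627) did not pass. Because each arm is 1 line, the test compares these 4 lines. MC38-MOCK#1, the reference of the first effect, was the lowest of all lines for Grem1 and the highest for Bmp1. MC38-WT, which is not in this test, had mean log2 levels of 10.57 (Grem1) and 9.19 (Bmp1). Those of MC38-COSMC KO were 9.31 and 9.17. Set beside MC38-WT, Grem1 was therefore lower and not higher in MC38-COSMC KO, a difference that was not tested.

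**Figure D3:**
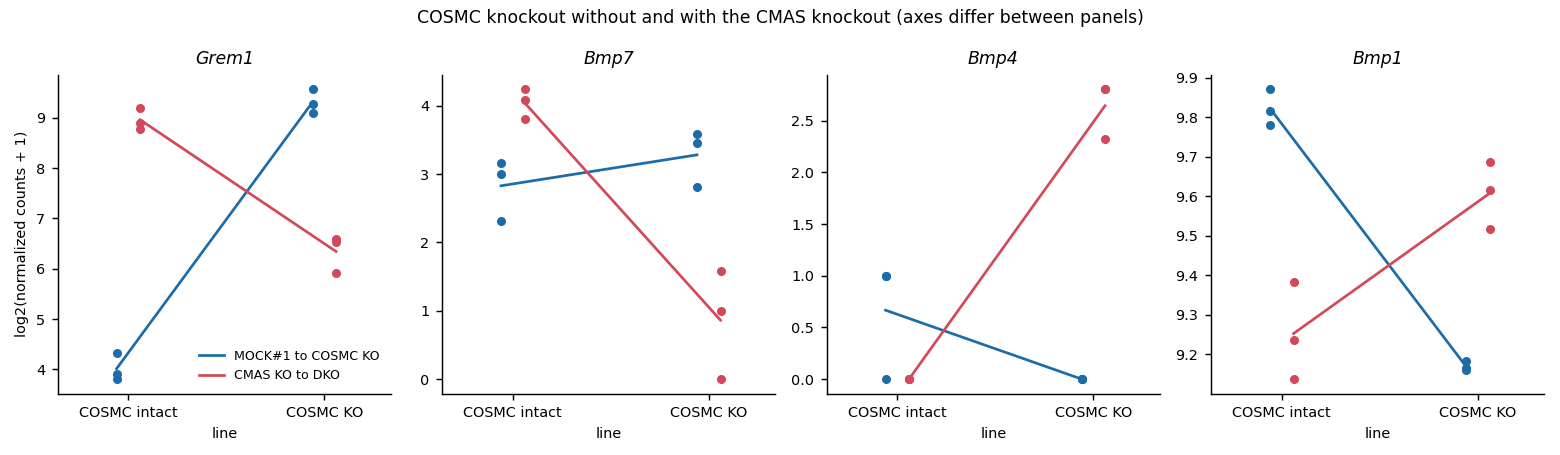
The 4 members whose COSMC knockout effect differed with the CMAS background, as log2(normalized counts + 1). Points are samples (3 per line, some coincide), and lines join the means of MC38-MOCK#1 and MC38-COSMC KO (blue) and of MC38-CMAS KO and MC38-DKO (red). The blue and red lines cross in each panel, and for Grem1 the mean log2 level goes from 4.01 to 9.31 in blue and from 8.96 to 6.34 in red.

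The other genes of the pathway were read from 5 lists with 70 genes in all, of which 11 were at 0 in all samples. Of 18 further BMP, GDF and activin ligands, just 3 exceeded 10 normalized counts in any sample (Gdf11, Inha and Inhba), whereas 13 of 15 receptors and co-receptors and 8 of 8 SMADs and SMURFs did. The lines thus carried RNA for receptors and signal transducers, including Bmpr1a at 140 to 216 and Bmpr2 at 55.0 to 74.8 normalized counts per kb in the line means (receptors named after their values were seen). Among the ligands, Gdf11 stood at 30.1 to 65.7 and Inha at 35.7 to 75.9 on the same scale, and Inhba at 1.3 to 72.9. Over the 8 comparisons, 61 of 366 tests were called, 34 higher and 27 lower, where the share of all genes called ran from 0.092% to 24.1% by comparison.

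The most frequently called of these genes was Inhba, which encodes the βA subunit of activin A and was called in 6 of 8 comparisons. It measured 325, 318 and 754 normalized counts in MC38-FUT9 against 29, 17 and 27 in MC38-MOCK#2 (log2 fold change 4.11, SE 0.371, adjusted p = 0.000699). In the line labelled MC38-FUT4, with 103, 59 and 90, it was higher as well (1.74, adjusted p = 0.00954). It was higher in MC38-CMAS KO (113, 89 and 134) than in MC38-MOCK#1 (10, 6 and 9; log2 fold change 3.60, adjusted p = 0.0017) and lower in MC38-DKO (12, 7 and 9) than in MC38-CMAS KO (-3.46, adjusted p = 0.000601). It was also higher in MC38-WT (2.69, adjusted p = 0.02) and MC38-MOCK#2 (1.43, adjusted p = 0.0425) than in MC38-MOCK#1. In MC38-COSMC KO, Inhba had 30, 14 and 22 and did not pass. Fstl3, a follistatin-like activin antagonist, was lower in MC38-MOCK#2 than in MC38-MOCK#1 (-1.05, adjusted p = 0.00346) and higher in the line labelled MC38-FUT4 than in MC38-MOCK#2 (1.78, adjusted p = 0.000441).

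Against MC38-MOCK#1, 2 pathway genes were higher and 1 lower of 48 in MC38-COSMC KO (6.25%, beside 11.6% of all genes), namely Smad1, a BMP signal transducer (0.61, adjusted p = 0.00571), Smurf1, a ubiquitin ligase for SMADs (0.57, adjusted p = 0.00233), and the target gene Hey1 (-1.26, adjusted p = 0.0186). In MC38-CMAS KO 5 were higher and 2 lower of 47 (14.9%, beside 5.76% of all genes), including the type I receptor gene Acvr1 (0.57, adjusted p = 0.0121) and the ligand gene Gdf11 (0.68, adjusted p = 0.0272). In MC38-DKO, limma called 0 of 46 against MC38-MOCK#1 (0.092% of all genes), and 0 were higher and 5 lower of 45 against MC38-CMAS KO (11.1%, beside 6.93% of all genes), among them Acvr1 (-0.50, adjusted p = 0.0217), Gdf11 (-0.59, adjusted p = 0.0306), Smad1 (-0.44, adjusted p = 0.0324) and Smurf1 (-0.42, adjusted p = 0.00898). In MC38-WT 3 of 47 were higher and 0 lower (Inhba, Smad1 and Smurf1), or 6.38% beside 5.51% of all genes. In MC38-MOCK#2 4 were higher and 2 lower of 46 (13%, beside 11.3% of all genes), with the endothelial-type receptor gene Acvrl1 at 96, 99 and 181 against 2, 1 and 0 in MC38-MOCK#1 (6.06, adjusted p = 0.00136).

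In the line labelled MC38-FUT4, 7 were higher and 8 lower of 44 (34.1%, beside 16.1% of all genes), and in MC38-FUT9 13 were higher and 9 lower of 43 (51.2%, beside 24.1%), so that the share of all genes called was also largest in these comparisons. In the former, Acvrl1 (10, 11 and 10) was lower than in MC38-MOCK#2 (-3.42, adjusted p = 0.000706), as were the co-receptor gene Tgfbr3 (26, 19 and 21 against 171, 149 and 704; -3.53, adjusted p = 0.00724) and the inhibitory Smad6 (-2.32, adjusted p = 0.0197). Hey1 was higher there (169, 208 and 145 against 31, 43 and 28; 2.33, adjusted p = 0.00105). In MC38-FUT9, Hey1 was lower (2, 1 and 2; -3.72, adjusted p = 0.000737), together with the BMP targets Id1 (-1.01, adjusted p = 0.0412) and Id3 (-1.37, adjusted p = 0.0458), while Smurf1 (1.11, adjusted p = 0.000921) and the type II receptor gene Acvr2b (1.21, adjusted p = 0.00467) were higher. Grem1 was at its highest in the line in which Id1 and Id3 were called lower. It was also higher in every line compared with MC38-MOCK#1, where Hey1 in MC38-COSMC KO was the only BMP target gene called. In the line labelled MC38-FUT4, Grem1 was lower than in MC38-MOCK#2 (-1.81). There Smad6 was called lower too, Hey1 was called higher, and Id1, Id2 and Id3 were not called. The relation between these values was not tested.

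**Figure D4:**
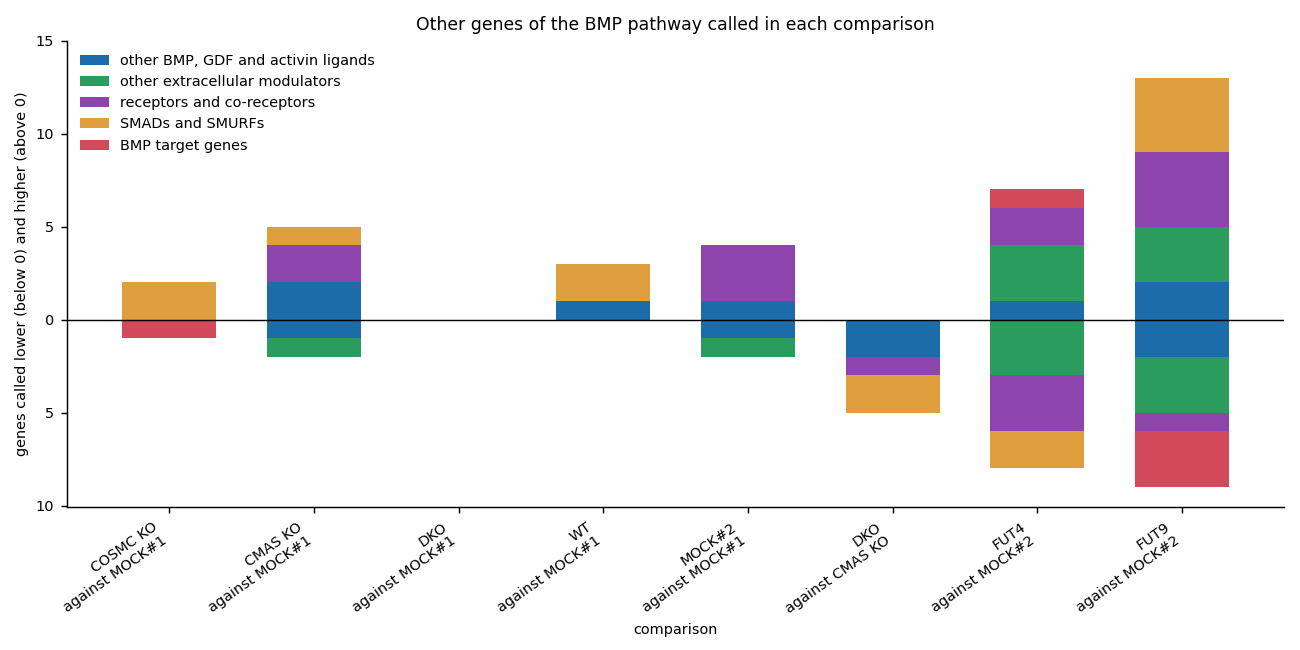
Number of the 70 other pathway genes called higher (above 0) and lower (below 0) in each comparison, colored by list. MC38-DKO against MC38-MOCK#1 has 0 calls, and MC38-FUT9 against MC38-MOCK#2 has 13 higher and 9 lower.

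Some genes that respond to BMP signals varied within lines, and others did so less. The SD of log2 levels within a line was 0.15 to 0.79 for Id1. It was 0.04 to 0.14 for Runx2, 0.1 to 0.28 for Msx1 and 0.19 to 0.34 for Hey1. A set of 6 genes was chosen after their values were seen (Id1, Id2, Id3, Atoh8, Smad6 and Smad7). Replicate 2 of the line labelled MC38-FUT4 was the highest of its line for 6 of 6. Replicate 2 of MC38-FUT9 was the highest and replicate 3 the lowest for 6 of 6, and replicate 3 of MC38-MOCK#2 was the lowest for 6 of 6. Likewise, replicate 1 of MC38-WT was the highest and replicate 1 of MC38-CMAS KO the lowest for 6 of 6, and replicate 2 was the highest for 5 of 6 in MC38-DKO and MC38-MOCK#2. The share of all genes with the same order of samples was not computed. These counts therefore do not show that the order is particular to BMP-responsive genes. Id1 measured 844, 2268 and 920 in the line labelled MC38-FUT4, Id2 191, 758 and 199, Id3 509, 1556 and 517, and Atoh8 78, 328 and 68. The highest sample over the lowest (1 added to each) was 2.69 for Id1, 3.95 for Id2, 3.05 for Id3 and 4.77 for Atoh8, where the median of the 10841 genes with a mean of at least 50 in this line was 1.15. Between 0.895% and 1.59% of these genes had a ratio as large as those of these 4. The sample with the high values was at passage 8 and the other two at passage 7, with an estimated 9232455 reads against 12847986 and 13106117, and the part of passage or depth in this was not tested. Of the members, Bmp2 (17, 14 and 16), Grem1 (235, 255 and 230) and Fstl1 (841, 866 and 908) lay close together in the same 3 samples. Members in the other lines were not compared with this pattern. In MC38-MOCK#2, Id2 measured 828, 1063 and 300 and Atoh8 431, 499 and 135, so the comparisons of target genes against this line carry a wide spread.

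**Figure D5:**
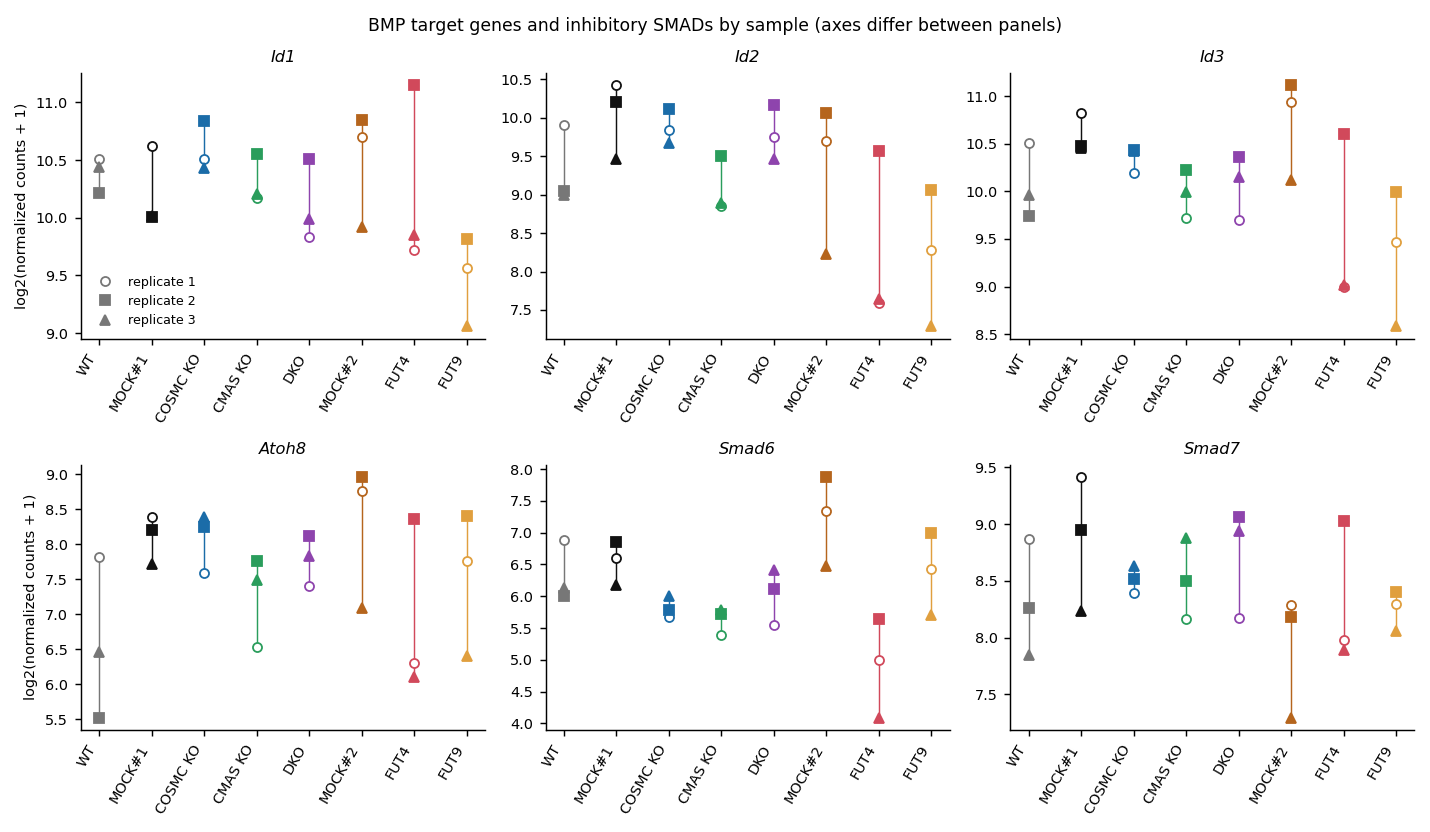
Level of 6 BMP-responsive genes in every sample, as log2(normalized counts + 1), with 1 vertical bar per line from its lowest to its highest sample and 1 symbol per replicate number. In the line labelled MC38-FUT4, replicate 2 (square) is the highest in 6 of 6 panels, and in MC38-FUT9 and MC38-MOCK#2 replicate 3 (triangle) is the lowest in 6 of 6.

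Finally, the genes with patterns most like those of Bmp5 and Bmper were sought over the 8 line means of log2(normalized counts + 1), among 13515 genes with a mean of at least 10. For Bmp5 they were Tsfm (Pearson r 0.958 over 8 lines and 0.833 over 24 samples), Zup1 (0.940 and 0.513), Gm7733 (0.929 and 0.746), Slc47a1 (0.925 and 0.846) and Gm5814 (0.913 and 0.641). Of these, Slc47a1, which encodes an organic cation exporter, also had a wide range, with means of 80.0 in MC38-COSMC KO and 69.0 in the line labelled MC38-FUT4 against at most 15.3 elsewhere. For Bmper they included Commd7 (0.955 and 0.741), Akr1c14 (0.954 and 0.928), Kcnj2 (0.953 and 0.928) and Fbxo2 (0.946 and 0.917). The potassium channel gene Kcnj2 had its highest mean in MC38-MOCK#2 (316) and its lowest in MC38-FUT9 (0.333), as did Akr1c14, a member of the aldo-keto reductases (262 and 0.667). These genes were picked for their likeness over 8 points, so the correlations are descriptions only.

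The genes next to Grem1, Bmper and Bmp5 were looked up after the members' values were seen, passing over genes with a mean below 1 normalized count. Fmn1, 29.4 kb from Grem1, had line means of 101 to 185, and Scg5, 17.7 kb on the other side, had at most 3.67. Bbs9, 335 kb before Bmper, had means of 76.0 to 166, with 138 in MC38-MOCK#2 and 80.0 in MC38-FUT9. Gm47638, 392 kb after Bmper, had means of 21.7 to 37.7. Gm3671, 80.7 kb before Bmp5, had means of 4.67 in MC38-WT to 8.33 in MC38-FUT9. Mlip, the first gene after Bmp5 with such a mean, lies 1202 kb away with other annotated genes between, and had a mean of 5.00 in the line labelled MC38-FUT4 and at most 2.00 elsewhere. No gene that overlapped with a member exceeded 1 normalized count in any sample.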

How the data were processed

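Poly(A) RNA of 24 samples was sequenced as 50-base single reads. The authors trimmed reads with Sickle, aligned them to GRCm38 with HISAT2 2.0.4, handled alignments with SAMtools 0.1.19, counted reads per Ensembl gene with featureCounts (Subread 1.5.0-p3, reads over several features left out; the strand setting was not given in the sources used here) and normalized with edgeR 3.18.1. The deposited values are a score, i.e., TMM-normalized counts that the authors rounded to whole numbers, so no count model was applied. Totals were 10911849 to 12263307 per sample, and 1 read was worth 0.756 to 1.67 normalized counts as estimated from gaps between low values. Pairs of samples of a line differed beyond sampling noise (chi-square per degree of freedom 5.31 to 29.9), so none was counted as a repeat.

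Comparisons were fitted with limma 3.58.1 (R 4.3.3) on log2(value + 1) with a mean-variance trend, 3 samples against 3, leaving out genes with more than 4 zeros among 6 samples, and p-values were adjusted over all genes (Benjamini-Hochberg, two-sided, threshold 0.05). In the fit over 12 samples, genes with more than 8 zeros were left out. Fold changes on this scale understate those of low genes. Ratios are of mean normalized counts, and intervals are exact conditional binomial 95% intervals on estimated reads (scipy 1.17.1) that cover counting error only. The script was tested on simulated data. Tables were made with pandas 2.3.3 and figures with matplotlib 3.10.9.

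The members and lists were chosen with earlier results of these data known. Text names all 10 members, at most 5 genes per pathway list and comparison (the largest log2 fold changes among those called whose samples do not overlap) and the 5 genes most like Bmp5 and Bmper (1 of those for Bmper is not reported here), besides genes said to be chosen after their values were seen. Alternatives were other pseudocounts (0.5 and 5), filters, scalings, moderation, 1 fit over all 8 lines, a replicate block, leaving out each sample, and a threshold on the fold change. Leaving out samples of the 12-sample fit was added after the data were seen.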

Additional observations from a re-analysis of the deposited data

Results flagged for a closer look

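For 4 members the effect of the COSMC knockout differed between the background with intact Cmas and the CMAS knockout background, by a limma test of the difference itself over the 12 samples of 4 lines. Of all genes tested, 22.1% were called in the same test. The difference (MC38-COSMC KO minus MC38-MOCK#1, less MC38-DKO minus MC38-CMAS KO) was 7.92 for Grem1, 3.64 for Bmp7, -3.31 for Bmp4 and -1.01 for Bmp1, on the log2 scale. Over the 12 fits that each left out 1 sample it ranged from 7.70 to 8.07 for Grem1, from 3.21 to 4.00 for Bmp7, from -3.65 to -3.15 for Bmp4 and from -1.07 to -0.95 for Bmp1, with a highest adjusted p of 0.00421 (Bmp7). For Grem1 and Bmp1, 3 of 3 samples of each knockout line lay beyond those of its reference, in opposite directions. The effect with intact Cmas is relative to MC38-MOCK#1, the lowest of all lines for Grem1 and the highest for Bmp1. The mean log2 level of Grem1 was 9.31 in MC38-COSMC KO, below the 10.57 of MC38-WT. C1galt1c1 RNA did not separate MC38-DKO from MC38-CMAS KO (log2 fold change 0.01), and each of the 4 lines is present 1 time only, so the line and the genotype cannot be told apart. Bmp7 and Bmp4 were at or below 18 and 6 normalized counts, and Bmp4 passed the filter on zeros only through its counts in MC38-DKO. Groups of 3 samples are too small for a check on single outlying samples.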

How the results depend on the processing

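Among the 8 tested members, 19 calls in all became 20 with a pseudocount of 0.5, 21 with 5, 21 after rescaling to the same total, 19 with median-of-ratios scaling, 26 with 1 fit over all lines and 13 without a mean-variance trend; Grem1 in MC38-DKO against MC38-MOCK#1 was among the 6 lost there. The counts of all genes called changed with these settings as well and are given below. Scalings shifted the median of all genes by at most 0.04. Of 1011 alternative values of log2 fold changes, 921 kept their direction and side of the threshold. For Bmp5 and Bmper, which have no test, a shift smaller than the pooled SD within lines took the place of the threshold. Directions turned 13 times, all on leaving out 1 sample and none for a called value, in Bmp2 (MC38-DKO against MC38-CMAS KO, -0.34 to 0.23; MC38-WT against MC38-MOCK#1, -0.44 to 0.35), Bmp5 (MC38-DKO against MC38-CMAS KO, -0.11 to 0.89), Bmp7 (MC38-WT against MC38-MOCK#1, -0.13 to 0.37), Fst (MC38-CMAS KO, -0.060 to 0.33, and MC38-COSMC KO, -0.30 to 0.33, against MC38-MOCK#1) and Fstl1 (the same pairs, -0.24 to 0.11 and -0.17 to 0.18).

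Counts of genes called are given in the order MC38-COSMC KO, MC38-CMAS KO, MC38-DKO, MC38-WT and MC38-MOCK#2 against MC38-MOCK#1, MC38-DKO against MC38-CMAS KO, and the line labelled MC38-FUT4 and MC38-FUT9 against MC38-MOCK#2. They were 2563, 1268, 20, 1192, 2454, 1515, 3509 and 5166. With a pseudocount of 0.5 they were 2529, 1232, 20, 1135, 2438, 1470, 3636 and 5096. With a pseudocount of 5 they were 2548, 1329, 25, 1211, 2477, 1525, 3432 and 4968. Rescaling to the same total gave 2871, 1331, 20, 1221, 2533, 1594, 3648 and 5216. Median-of-ratios scaling gave 2663, 1335, 20, 1213, 2511, 1595, 3576 and 5207. Without a trend they were 1135, 726, 40, 717, 1389, 692, 2270 and 3430 (pathway genes 39 instead of 61). Leaving out 1 sample gave 675 to 2137, 122 to 876, 0 to 4, 31 to 693, 632 to 1737, 231 to 761, 1621 to 3112 and 3089 to 5065, with 14 to 20 members and 38 to 62 pathway genes called; fewer samples were fitted there. A single fit over all lines gave 2969, 2207, 159, 2981, 3976, 2403, 4861 and 5928. Requiring in addition an absolute log2 fold change above 1 gave 828, 580, 651, 1064, 591, 1447 and 1823 without MC38-DKO against MC38-MOCK#1, and 32 pathway genes. Where no construction of the alternative is named, the cause was not tested.

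Deviations of samples with the same replicate number correlated at -0.213 to 0.254, and in no comparison above 0.1 in all 3 pairs, so the numbers were not taken to pair samples, although in MC38-MOCK#2 against MC38-MOCK#1, MC38-DKO against MC38-CMAS KO and MC38-FUT9 against MC38-MOCK#2, all 3 were positive and 6 of 6 samples correlated best with their own number. With the replicate block, limma called 4, 1, 0, 0, 2168, 795, 1756 and 4963 genes (4669, 3960, 1408, 3788, 6509, 5547, 6144 and 7996 at an unadjusted p below 0.05), and 12 members (9 lost, 2 gained: Bmp2 and Fstl1 in MC38-FUT9, adjusted p 0.0343 and 0.0475). The 9 lost included Grem1 in MC38-COSMC KO, MC38-CMAS KO, MC38-DKO and MC38-WT against MC38-MOCK#1 (adjusted p 0.0771, 0.107, 0.668 and 0.09). Every call of Bmp1 and Bmp2 against MC38-MOCK#1 was lost too, as was Bmp1 in the line labelled MC38-FUT4 (0.072). In the 12-sample fit, 4 members were called with the replicate block, 3 with a minimum mean of 10 and 5 after rescaling to the same total. The share of all genes called in this fit with these settings was not compared, so these counts are no result about the members. Bmp4, Bmp7 and Fst lay below the minimum mean of 10 and were not tested with it. The 3 called there therefore include a member that was not called in the main fit. Which members were called with the other alternatives was not compared. Members at or below the floor of 3 reads (Bmp4, Bmp5, Bmp7 and Fst in several lines) are limited by depth.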
